A study of Homo sapiens with 10 samples.

Results

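The genes described here are the subunits of the transcription factor NF-kB and the inhibitors it induces to shut itself off, in HuCCT1, an established line of human bile duct cancer (cholangiocarcinoma). Members were all probe sets of the Affymetrix array annotated with exactly 1 gene symbol out of a list of 10, namely NFKB1, NFKB2, REL, RELA, RELB, NFKBIA, NFKBIE, NFKBIZ, TNFAIP3 and BIRC3. The rule found 19 probe sets for 9 of the 10 genes, of 54613 probe sets in all. No probe set was paired with BIRC3 in the annotation used, so BIRC3 was not analysed here. The study compared 5 arrays of cells carrying an empty vector with 5 arrays of cells carrying a vector labelled YAPS94A. The labels and the title name the S94A form of the Hippo pathway co-activator YAP1, known for its weakened binding to TEAD factors. The design text names S127A instead, a constitutively active form, and the arrays cannot tell which one the cells held. All cells grew in the same serum-containing medium, and the labels do not say whether a vector's cells were a pool or a clone, how long they carried it, or whether its 5 arrays came from separate cultures. So the p-values rest on differences between arrays of a vector, and this spread may be technical.

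NF-kB is a family of paired subunits held in the cytoplasm by inhibitors of the IkB class. Signals from tumour necrosis factor, interleukin-1 or toll-like receptors activate the IKK kinases, which mark IkB for destruction and let the subunits enter the nucleus. Among the first genes then switched on are those of the inhibitors themselves, so that the response limits its own duration. In bile duct cells the pathway is known for driving inflammatory chemokines and survival genes. Arrays measure transcripts, whereas NF-kB activity is set largely by where its proteins lie and how fast IkB is degraded, which these data do not show.

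The transcripts of 5 of the 9 genes were lower with the construct and 1 was higher. TNFAIP3 fell by more than 2-fold, NFKBIA, REL, NFKBIZ and NFKB1 fell by 1.25 to 1.35-fold, and RELA was 1.22-fold higher. NFKB2, RELB and NFKBIE did not pass the test. These counts take each gene by its brightest probe set and call a difference at a limma adjusted p under 0.05 (Benjamini-Hochberg over all probe sets). On the same terms 16.6% of 19775 genes were lower and 17.8% were higher. The median difference was -0.32 over the 9 genes and -0.004 over all genes (log2, YAPS94A minus empty vector). Of the 19 probe sets, 9 were lower, where 14.7% of all probe sets were, and 2 were higher, where 13.9% were. The groups of arrays did not overlap for 11 of the 19, against 23.0% of all probe sets. Both group means lay above the lower quartile of signals (4.73) for 18 of the 19 and above the overall median (6.27) for 16.

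The cells and the construct were checked first. Of 8 bile duct epithelial markers 7 were measured, and all 7 lay above the median signal, among them KRT19 at 14.07 and 14.30 with empty vector and construct. PTPRC, the pan-leukocyte marker, read 5.25 and 5.18, below that median. CD3E, of T cells, read 4.49 and 4.50. Of 5 leukocyte markers 4 were measured. CD14 lay above the median with both vectors, and LYZ did with empty vector alone and differed, from 6.90 to 5.42 (limma adjusted p = 1.84e-06), and its part in the results was not tested. Of 4 fibroblast and 3 hepatocyte markers, 1 of each lay above the median, and of 3 endothelial markers 0 did. YAP1 was higher with the construct on each of its 3 probe sets, by 0.52 ± 0.11, 0.56 ± 0.10 and 0.60 ± 0.065 (SE). Whether these probe sets read the vector's transcript or the cells' own was not tested.

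The start regions were searched for the sequence that NF-kB itself reads. The RefSeq promoter table (GRCh38.p14) holds windows from 250 bases before to 50 after a start for 7 of the 9 measured genes. A search for the 10-base kB consensus on both strands found it in 6 of these 7 genes and in 8 of their 12 windows. Of all 35116 windows 5.91% hold it, and of all 27305 genes with a window 7.09% do. The members were picked for their part in the NF-kB system, so this contrast is not an independent test. The sites below, 5′ to 3′ in the direction of the gene with matched bases in capitals and overlapping matches joined, are shown because these genes are read as both parts and targets of the NF-kB system.
NFKB1, chr4:102501300-102501329 (+), 49 bases before the start: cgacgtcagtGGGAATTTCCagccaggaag
REL, chr2:60881518-60881547 (+), 47 bases before the start: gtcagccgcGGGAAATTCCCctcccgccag
NFKBIZ, chr3:101827757-101827786 (+), 223 bases before its outer start: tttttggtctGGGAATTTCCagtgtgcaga
NFKBIZ, chr3:101849265-101849294 (+), 239 bases before its inner start: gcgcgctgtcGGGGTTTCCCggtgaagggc
TNFAIP3, chr6:137867188-137867217 (+), a pair of matches 67 and 55 bases before the start: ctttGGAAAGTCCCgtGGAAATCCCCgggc
NFKB2, chr10:102394462-102394491 (+), 107 bases before the middle of 3 starts: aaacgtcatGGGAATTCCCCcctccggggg
NFKB2, chr10:102395674-102395703 (+), 21 bases before the innermost start: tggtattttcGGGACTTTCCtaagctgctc

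A match is a run of letters and not evidence of binding. The lack of a match is likewise not evidence that a site is absent, since only full matches to 1 consensus within these windows were counted. NFKB2, whose transcript did not pass the test, holds more matched stretches (4, of which 2 are printed) than any member that fell. NFKBIA holds 1 match, and RELA, the member that was higher, holds none in either of its 2 windows. For comparison, the 250 bases before the NFKBIA start and before the outer RELA start are given whole.
NFKBIA, chr14:35404750-35404999 (-): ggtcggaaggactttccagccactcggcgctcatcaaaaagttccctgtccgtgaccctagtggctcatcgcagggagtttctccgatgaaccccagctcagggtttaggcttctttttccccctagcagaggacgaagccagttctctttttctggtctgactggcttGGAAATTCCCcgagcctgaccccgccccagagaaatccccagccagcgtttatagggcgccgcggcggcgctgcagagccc
RELA, chr11:65663858-65664107 (-): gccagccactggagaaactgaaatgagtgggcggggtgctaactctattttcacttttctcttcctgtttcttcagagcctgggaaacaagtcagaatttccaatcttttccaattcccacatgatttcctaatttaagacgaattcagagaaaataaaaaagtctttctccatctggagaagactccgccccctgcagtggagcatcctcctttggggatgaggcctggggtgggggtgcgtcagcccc

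Among the subunits, those of the canonical dimers moved in opposite directions. RELA encodes the main activating subunit. Its brighter probe set (201783_s_at) read 11.89, 11.93, 11.76, 11.68 and 11.69 with empty vector and 12.17, 12.24, 12.00, 11.97 and 12.00 with the construct (log2 signal). The groups did not overlap, and the nearest arrays of the 2 vectors were 0.04 apart. The means were 11.79 ± 0.11 and 12.07 ± 0.12 (SD, n = 5), a difference of 0.28 ± 0.070 (SE, limma adjusted p = 0.00884). The dimmer RELA probe set (209878_s_at) went from 7.70 ± 0.13 to 8.08 ± 0.12 (SD, n = 5), a rise of 0.38 ± 0.072 (limma adjusted p = 0.00169), again without overlap. RELA lay among genes that were higher. Of the 30 nearest genes above the median level on chromosome 11, 15 were higher and 1 was lower, with a median difference of 0.27. Less that median the RELA difference was 0.01 ± 0.070 (limma adjusted p = 0.914), and on the dimmer probe set it was 0.11 ± 0.072 (limma adjusted p = 0.263). For values less a neighbour median, here and below, the SE is that of the gene's own limma difference. The p-value was recomputed from that SE, so both take the median as fixed and leave out its error.

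NFKB1 encodes the precursor of the subunit that most often pairs with RELA. Its single probe set (209239_at) read 10.97, 10.91, 10.91, 10.69 and 10.72 with empty vector and 10.48, 10.65, 10.49, 10.53 and 10.43 with the construct. The groups did not overlap, although empty vector arrays 4 and 5 came within 0.1 of construct array 2. The means were 10.84 ± 0.13 and 10.52 ± 0.085 (SD, n = 5), a fall of 0.32 ± 0.065 (SE, limma adjusted p = 0.00256). The exact two-sided permutation p was 0.0079, the smallest that 5 against 5 arrays allow, as for every probe set whose groups did not overlap. Neighbouring genes of NFKB1 had a median of -0.01.

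REL encodes c-Rel, an activating subunit best known from lymphocytes, and is read by 5 probe sets. The brightest (235242_at) read 9.29, 9.61, 9.31, 9.68 and 9.64 with empty vector and 9.07, 8.96, 9.08, 9.15 and 9.28 with the construct. Groups touched but did not overlap, with empty vector arrays 1 and 3 close to construct array 5. The difference was -0.40 ± 0.090 (SE, limma adjusted p = 0.00533), and on the next brightest (228812_at) it was -0.43 ± 0.080 (limma adjusted p = 0.00138). The remaining 3 read REL differences of -0.33 ± 0.12 (206036_s_at, limma adjusted p = 0.051), -0.33 ± 0.25 (239486_at, 0.392) and -0.18 ± 0.081 (206035_at, 0.133). All 5 pointed downward and 2 of the 5 passed in this fit, which has no covariate. With the array number as a replicate block, 206036_s_at (limma adjusted p = 0.00226) and 206035_at (limma adjusted p = 0.045) passed as well. How many calls that block added among all probe sets is not given here. The probe set 239486_at varied most within a vector, with SDs of 0.51 and 0.41 (n = 5 each).

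The subunits of the non-canonical arm did not pass the test. NFKB2 encodes the precursor that is processed when the arm is active. Its brightest probe set (209636_at) read 9.43, 9.22, 9.22, 8.95 and 9.01 with empty vector and 9.17, 9.34, 9.15, 9.06 and 9.06 with the construct. The groups overlapped almost fully, and the difference was -0.01 with a 95% interval of -0.20 to 0.18. The second NFKB2 probe set (207535_s_at) was at 0.07 ± 0.059 (limma adjusted p = 0.455). The dimmest (211524_at) read 3.59 ± 0.033 and 3.69 ± 0.035 (SD, n = 5), the lowest level of any member and below the lower quartile of signals. Its groups did not overlap, yet it was not called (limma adjusted p = 0.0572). RELB, the partner of the processed NFKB2 product, read 7.41, 7.43, 7.10, 7.30 and 7.19 and then 7.40, 7.41, 7.28, 7.33 and 7.39. The construct arrays lay within the range of the empty vector arrays, with a difference of 0.08 and a 95% interval of -0.07 to 0.22.

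TNFAIP3 showed the largest difference of the 9 genes. It encodes A20, an enzyme that edits ubiquitin chains and ends signalling from tumour necrosis factor and toll-like receptors. The brighter probe set (202644_s_at) read 11.54, 11.45, 11.59, 11.59 and 11.51 with empty vector and 10.40, 10.20, 10.46, 10.34 and 10.39 with the construct. The other (202643_s_at) read 10.53, 10.56, 10.59, 10.58 and 10.61, and then 9.28, 9.13, 9.26, 9.18 and 9.26. On both, the vectors were far apart and the arrays of each vector close together. The falls were 1.18 ± 0.052 (2.26-fold, limma adjusted p = 1.44e-08) and 1.35 ± 0.041 (2.55-fold, limma adjusted p = 5.37e-10). Of all 19775 genes, 178 (0.90%) fell as far as the brighter probe set or farther. TNFAIP3 also lay among genes that were lower, with 22 of its 30 neighbours on chromosome 6 lower, 3 higher and a median of -0.31. Relative to that median TNFAIP3 was at -0.87 ± 0.052 (limma adjusted p = 1.67e-07), and its dimmer probe set at -1.04 ± 0.041.

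NFKBIA encodes IkB-alpha, the inhibitor that is degraded first and resynthesised within the same response. Its brighter probe set (201502_s_at) read 10.94, 10.94, 10.93, 10.65 and 10.64 with empty vector and 10.37, 10.55, 10.34, 10.38 and 10.30 with the construct. Empty vector arrays fell into a higher group of 3 and a lower pair, and even the pair lay above all construct arrays. The fall was 0.43 ± 0.078 (1.35-fold, limma adjusted p = 0.0012). The second NFKBIA probe set (231699_at) went from 8.24 ± 0.088 to 7.93 ± 0.036 (SD, n = 5), a fall of 0.30 ± 0.047 (limma adjusted p = 0.000359). Of all genes 5.33% fell as far as NFKBIA or farther. Neighbouring genes of NFKBIA had a median of -0.03.

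NFKBIZ encodes IkB-zeta, a nuclear member of the IkB class that acts on a subset of NF-kB targets and is itself induced. Its brighter probe set (223218_s_at) read 12.03, 12.12, 12.17, 12.31 and 12.29 with empty vector and 11.90, 11.73, 11.93, 11.79 and 11.91 with the construct. No arrays overlapped, and empty vector array 1 was the nearest to the construct arrays. The fall was 0.33 ± 0.063 (limma adjusted p = 0.00165), of which 0.22 ± 0.063 remained relative to a neighbour median of -0.11 (limma adjusted p = 0.0141). The other NFKBIZ probe set (223217_s_at) fell by 0.38 ± 0.084 (limma adjusted p = 0.00489), with construct array 4 at 9.03 just above the lowest empty vector array.

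NFKBIE encodes IkB-epsilon, a slower feedback inhibitor. Its probe set (203927_at) read 10.48, 10.29, 10.27, 9.97 and 9.94 with empty vector and 10.18, 10.43, 10.02, 9.94 and 10.00 with the construct. The spread within each vector was wider than for any other brightest member probe set, and the groups overlapped. The difference was -0.08 with a 95% interval of -0.34 to 0.18. A fall of the size seen for NFKBIZ or NFKB1 lies within that interval, which rests on the fit without a covariate. With the RNA quality measure described below as a covariate, the NFKBIE difference was -0.01 ± 0.04 (SE). Of the 3 measured IkB genes among the members, NFKBIA and NFKBIZ passed and NFKBIE did not, and whether they differed from each other was not tested.

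**Figure D1:**
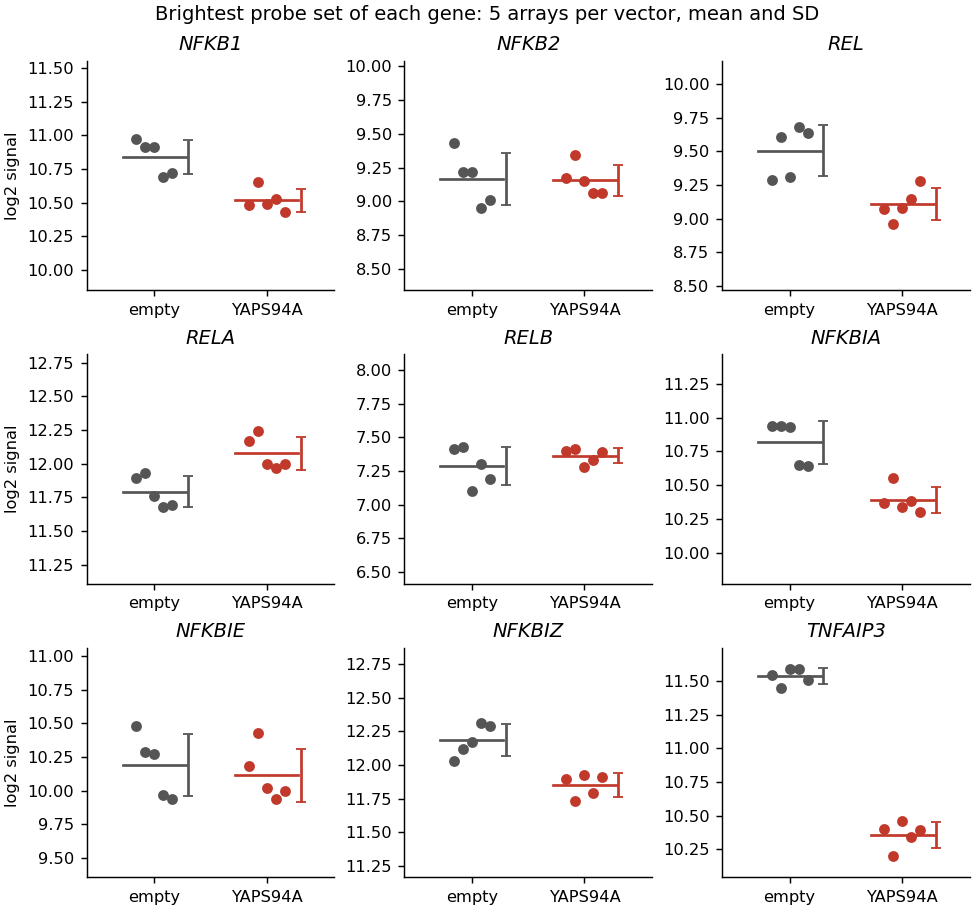
Log2 signal of the brightest probe set of each of the 9 genes on 5 empty vector and 5 YAPS94A arrays (points), with mean lines and SD bars, each panel spanning the same range of log2 units. TNFAIP3 is set apart most clearly, RELA is the gene that is higher with the construct, and the NFKB2, RELB and NFKBIE arrays overlap.

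**Figure D2:**
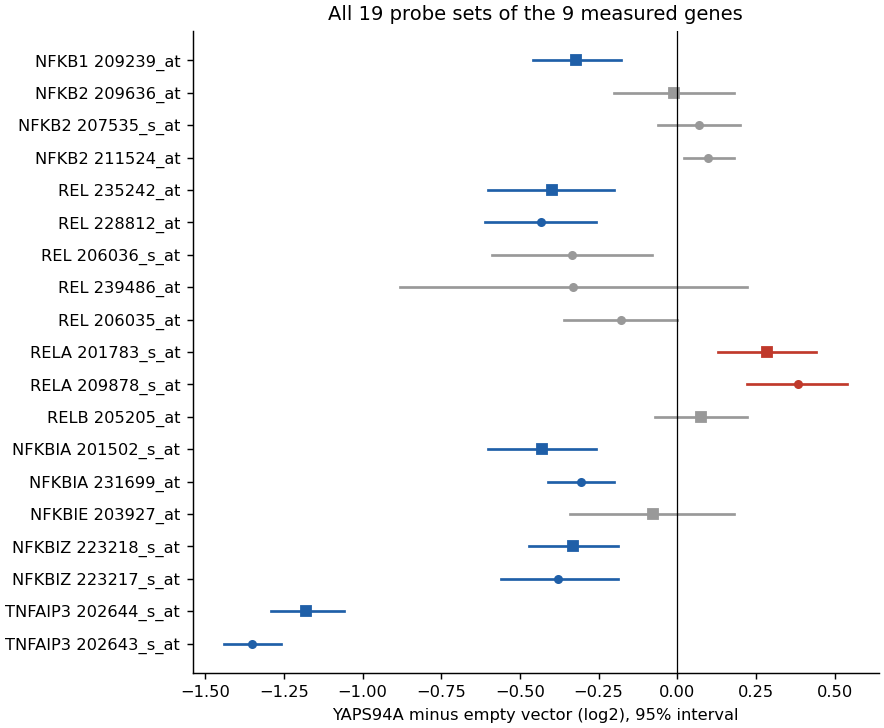
Difference between vectors (log2, YAPS94A minus empty vector) for all 19 probe sets with 95% intervals from the limma fit, squares marking the brightest probe set of a gene. Blue marks the 9 probe sets that were lower, red the 2 that were higher and grey the 8 that did not pass.

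Probe sets of 1 gene pointed the same way, apart from those of NFKB2. The 2 probe sets each of RELA, NFKBIA, NFKBIZ and TNFAIP3 all passed. Of the 19 probe sets 9 carry the suffix _s_at, meaning that their probes can match several transcripts, and none carries _x_at. RELA, NFKBIZ and TNFAIP3 are read by _s_at probe sets alone.

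**Figure D3:**
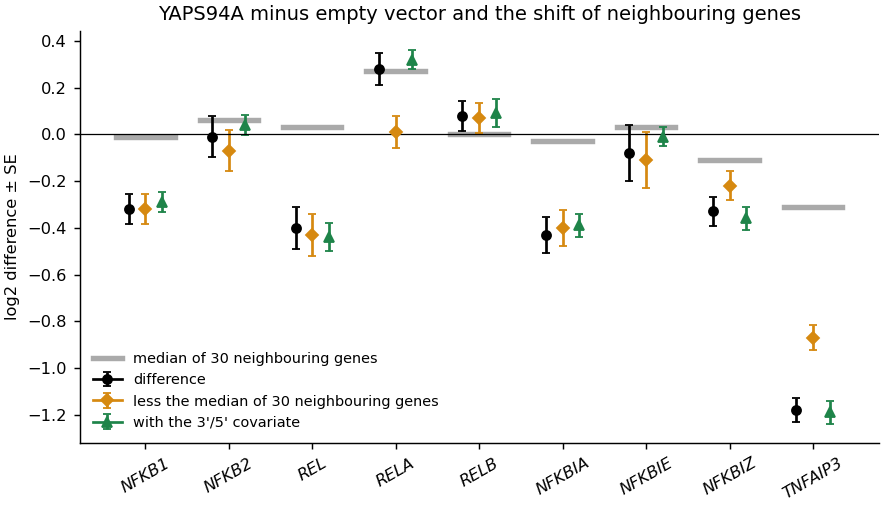
Difference between vectors for the brightest probe set of each gene (log2 ± SE) as measured (black), less the median of the 30 nearest genes above the median level (orange) and with the RNA quality covariate (green), with that neighbour median as a grey bar. The RELA difference matches its neighbour median, whereas TNFAIP3 lies well below its own. The orange SE bars take the neighbour median as fixed.

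Arrays of the same vector differed from each other in a shared way. The signal of 3′ minus 5′ control probe sets for GAPDH and ACTB, a measure of RNA integrity and of the length of amplified cDNA, ranged from 0.48 to 0.85 with empty vector and from 0.44 to 0.82 with the construct (means 0.64 and 0.59). NFKBIA, NFKB1, NFKB2, NFKBIE and RELA tended to read higher within each vector where this measure was high. Empty vector array 1 had the highest measure and NFKBIE deviated there by 0.29 from its vector mean, and construct array 2 had 0.82 and NFKBIE deviated there by 0.32. REL and NFKBIZ went the other way, at -0.22 and -0.16 on empty vector array 1. With the measure as a covariate the SE of NFKBIE dropped from 0.12 to 0.040 and its difference was -0.01 (limma adjusted p = 0.925). NFKB1, REL, RELA, NFKBIA, NFKBIZ and TNFAIP3 were then at -0.29, -0.44, 0.32, -0.39, -0.36 and -1.19, and each was called. All 5 REL probe sets were called under that covariate, the dimmest at -0.21 ± 0.059 (limma adjusted p = 0.0139). The dimmest NFKB2 probe set was called too, at 0.09 ± 0.031 (limma adjusted p = 0.0454). No share of all probe sets called is given for that covariate, so the added calls are not read as particular to the members.

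**Figure D4:**
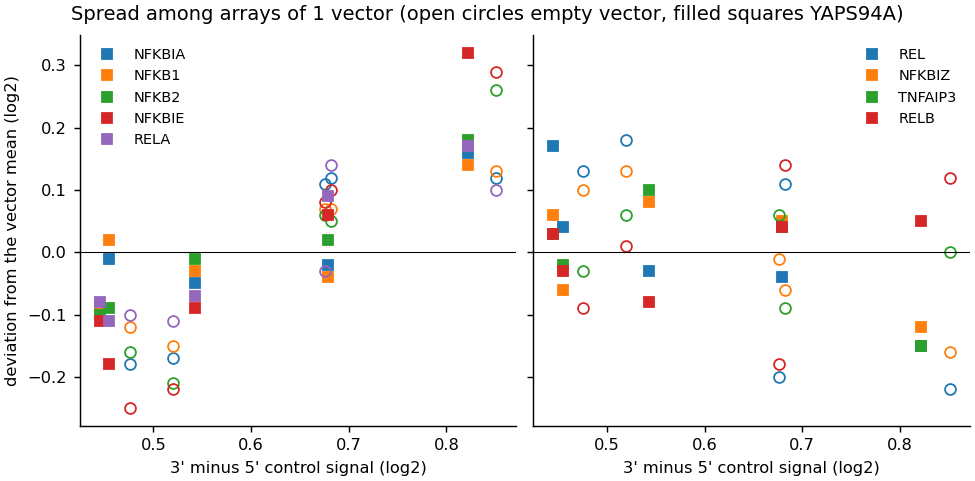
Deviation of each array from its vector mean (log2) against the 3′ minus 5′ control signal (log2) for the brightest probe sets, open circles for empty vector and filled squares for YAPS94A. NFKBIA, NFKB1, NFKB2, NFKBIE and RELA (left) tend to rise with the control signal within each vector, whereas REL and NFKBIZ tend to fall and TNFAIP3 and RELB vary without a clear trend (right).

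The genes with a pattern most like that of NFKBIA over the 10 arrays, among genes above the median level, were DPH2, NFKB1, SLC66A1, MRAP and CMTM3, with Pearson correlations of 0.993, 0.993, 0.992, 0.989 and 0.987. These values contain the difference between vectors, since the 10 arrays form 2 clusters. For deviations from the vector means the closest were DPH2 (0.987), TANGO6 (0.981), HTRA2 (0.974), NFKB1 (0.972) and BCKDK (0.968). NFKBIE (0.895), NFKB2 (0.888) and RELA (0.777) were also positive by that measure, and TNFAIP3 (-0.496), REL (-0.747) and NFKBIZ (-0.887) were negative. All correlations share the same 10 arrays and the spread in RNA quality described above, and are given as a description.

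The rest of the NF-kB system was read from 4 lists by role, and the differences written below as rises or falls had limma adjusted p-values of 0.0416 or less. Of 20 activating ligands and receptors 6 were lower, 7 were higher and 7 did not pass, with a median of -0.04. Among all genes 16.6% were lower and 17.8% were higher. IL1B, a ligand of the interleukin-1 branch, fell by 1.69 ± 0.073 and IL1A by 0.86 ± 0.067, while a dim second probe set of IL1A was at -0.04. IL1R1, their signalling receptor, fell by 1.55 ± 0.077, with its other probe set at -0.42. IL1RAP, the co-receptor, was at 0.58 ± 0.26 and did not pass (limma adjusted p = 0.128). TNFRSF12A, the receptor for the cytokine TWEAK, fell by 0.27 ± 0.040. TLR2, which senses bacterial lipoproteins, rose by 1.46 ± 0.080 and TLR3, which senses double-stranded RNA, by 1.36 ± 0.060. TNFSF15 rose by 1.05 ± 0.058 and LTB, a ligand of the non-canonical arm, by 1.15 ± 0.077, although a second LTB probe set was at 0.05. LTBR, the receptor of LTB, fell by 0.54 ± 0.11 (limma adjusted p = 0.00276), and its 4 probe sets ranged from -0.54 to -0.14.

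Of 26 listed IKK kinases and upstream adaptors 23 were measured, with 3 lower, 7 higher and 13 not past the test, where 16.6% of all genes were lower and 17.8% higher. The list's median was 0.05, with genes called in both directions. CHUK, the IKK-alpha kinase, fell by 0.29 ± 0.041, MALT1 by 0.26 ± 0.069 and the kinase gene TBK1 by 0.16 ± 0.045. TAB3, an adaptor of the kinase TAK1, rose by 0.54 ± 0.051, and by 0.28 to 0.96 on its other probe sets. IKBKE, a kinase related to TBK1, rose by 0.38 ± 0.063. RBCK1, of the complex that builds linear ubiquitin chains, rose by 0.22 ± 0.036. TRAF6, the ubiquitin ligase of the interleukin-1 and toll-like branches, rose by 0.22 ± 0.040, with its other probe set at -0.02.

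Of 20 other IkB genes and brakes on the pathway 18 were measured, with 3 lower, 3 higher, 12 not past the test and a median of -0.02. These counts are near the shares of all genes given above, and the list was not tested against the members. TRAF1, an adaptor that NF-kB induces, fell by 1.13 ± 0.14. NFKBIB, which encodes IkB-beta, fell by 0.17 ± 0.049, read by an _x_at probe set that may bind other transcripts. TNIP3 read 0.20 ± 0.065 lower at a level of 3.67, below the lower quartile. PDLIM2 rose by 0.42 ± 0.10, with its other probe set at -0.01. NFKBIL1 and IRAK2 rose by 0.25 ± 0.063 and 0.24 ± 0.040, and the neighbours of IRAK2 had a median of 0.31. The other IRAK2 probe sets, at 0.09 and 0.20, did not pass (limma adjusted p = 0.274 and 0.259). IRAK2 was counted in this list, and whether it acts as a brake in these cells was not tested.

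Of 36 listed target genes 34 were measured, with 19 lower, 5 higher, 10 not past the test and a median of -0.25. Among all genes 16.6% were lower and 17.8% were higher. Many of the listed targets had been seen to fall in earlier results of these data when the list was made. Their direction is therefore not independent evidence. BCL2A1, a survival gene of the BCL2 family, fell by 6.21 ± 0.091, to 4.90. CXCL6, a neutrophil-attracting chemokine, fell by 3.87 ± 0.086, to 4.96. Both ended close to the lower quartile, so the sizes of these falls are uncertain. CXCL1 and CXCL3, chemokines of the same kind and of similar sequence, fell by 2.94 ± 0.045 and 2.19 ± 0.055. The monocyte chemokine gene CCL2 rose by 2.45 ± 0.10, and IL1RN, which encodes the natural interleukin-1 receptor antagonist, by 0.63 ± 0.043. IRF1, shared by the interferon and NF-kB responses, rose by 0.48 ± 0.039 and BCL2L1 by 0.30 ± 0.084.

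**Figure D5:**
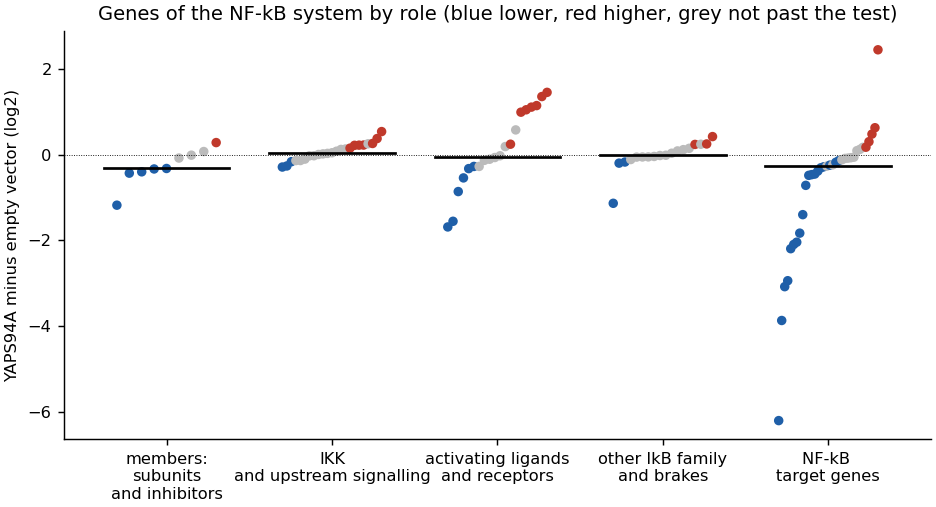
Differences between vectors (log2, YAPS94A minus empty vector) for the brightest probe set of each measured gene, for the members and for the 4 other lists, with the median of each as a black line. The members other than TNFAIP3 lie within about 0.43 of 0, whereas the targets reach from -6.21 to 2.45.

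The kB consensus was found in the promoter windows of 16 of 29 listed target genes that had one (55.2%), of 6 of 18 other IkB genes and brakes, of 2 of 22 IKK and upstream genes and of 2 of 16 ligands and receptors. Among measured targets with a window it was in 12 of the 17 that were lower. It was in 1 of the 4 that were higher (IRF1) and 3 of the 7 that did not pass. The list was made of NF-kB targets with many of their falls already known, so this split is not independent evidence. Of all measured genes with a window, 7.81% of those that were lower and 10.4% of those that were higher held a match. The 5 lower targets with a window but no match were BCL2A1, PTGS2, CXCL8, SOD2 and TNFAIP2. Whether these 5 hold kB sites that depart from the consensus or lie outside the windows was not tested.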

How the data were processed

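RNA of HuCCT1 cells was amplified with a NuGEN Ovation kit, biotin-labelled and hybridised to Affymetrix arrays, per the labels' protocols. The authors deposited log2 signals of 54675 probe sets, by a summary and normalization not given in the sources used here. The deposited log2 values ran from 2.86 to 14.43, with array medians of 6.25 to 6.28, and were used unchanged without detection calls. Precision is limited by the 10 arrays.

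Gene names came from the platform annotation, updated through RefSeq (GRCh38.p14). Of the probe sets 41091 had 1 symbol, and 62 controls were left out. The vectors were compared with limma 3.58.1 in R 4.3.3 (lmFit and eBayes, no covariate, two-sided) over 54613 probe sets, with Benjamini-Hochberg adjustment over all of them. A gene was represented by its brightest probe set. On simulated arrays of the same size, 28% of 50 probe sets shifted by 0.25 were recovered and 78% at 0.5. At a shift of 1 it was 100% and at 2 it was 98%, with 8 false calls. Only 50 probe sets were shifted at each size, with independent noise, far fewer than were called in the data. The adjusted threshold was therefore stricter there, and these shares do not give the sensitivity of the real comparison. The 4 lists, the members and the tests were chosen with earlier results of these data known. Named besides the members were YAP1, up to 4 genes in each direction with the smallest p from each list, and the genes most correlated with NFKBIA. CD14, CD3E, IL1RAP, KRT19, LTBR, LYZ, PTPRC, and the 5 lower targets without a match, were named outside that rule after their values were seen. Alternatives covered normalization, filters, probe set choice, variance model, array weights, array number, RNA quality, neighbouring genes and arrays left out.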

Additional observations from a re-analysis of the deposited data

How the results depend on the processing

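NFKB1, REL, NFKBIA, NFKBIZ and TNFAIP3 kept their direction and their call under every alternative that could be run for them (23 each, 22 for NFKBIZ and TNFAIP3, which have no probe set without the _s_at suffix), with adjusted p-values up to 0.0318. RELA lost its call once, with the neighbour median subtracted (0.012, adjusted p = 0.914), which also took the members higher to 0 genes and 0 probe sets. Without _x_at and _s_at probe sets, where RELA, NFKBIZ and TNFAIP3 have no value, 3 genes and 4 probe sets of the members were lower and 0 were higher, 3 ligands and receptors were lower and 3 targets were higher. Of the other IkB genes and brakes, 1 was lower without the arrays numbered 1 and 2, and 5 were higher with the RNA quality covariate, in the mean of a gene's probe sets and with the replicate block. NFKB2, at -0.01, changed sign with the RNA quality covariate (0.039), array weights (0.01), the mean of its probe sets (0.053) and without the arrays numbered 1 and 2 (0.028), and ranged from -0.064 to 0.055 when single arrays were left out. These values are for its brightest probe set or the mean, and neither was called in any of these. The dimmest NFKB2 probe set (211524_at) was called with the RNA quality covariate (0.09, limma adjusted p = 0.0454). With that covariate, array weights, median centring or the intensity trend 3 member probe sets were higher, where 2 were in the main fit. Apart from the construction of the probe set filter, the cause of these changes was not tested. The shares of all genes and probe sets called were taken from the main fit alone, so these shifts in counts are not read as particular to a list.

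Arrays of both vectors share the numbers 1 to 5. Deviations of same-numbered arrays correlated at 0.063 to 0.543 over all probe sets and at 0.102 to 0.59 over genes, all positive. In both vectors arrays 1 and 2 had the highest 3′ minus 5′ measure. The labels do not say what the numbers stand for, and the main fit left them out. Whether the numbers mark a batch was not tested, but the number was fitted as a replicate block among the alternatives. A replicate block on the number took the SE of RELA from 0.07 to 0.037 and that of NFKBIE from 0.12 to 0.071. With the array number as a replicate block, 5 member genes were lower and 1 was higher, as without it, and 11 member probe sets were lower where 9 were without it. The 2 added were REL probe sets 206036_s_at (-0.33, limma adjusted p = 0.00226) and 206035_at (-0.18, limma adjusted p = 0.045), so 4 of the 5 REL probe sets were called. The share of all probe sets called was taken from the main fit alone, so the rise from 9 to 11 is not read as particular to the members. Leaving out single arrays gave 5 member genes lower and 1 higher each time, and 9 to 10 probe sets lower. The 10 arrays limit precision, and dim probe sets lie near background.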

Other observations

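Among 15384 measured genes with a promoter window, 8.47% held a match to the kB consensus. The share was 7.81% of 2689 genes that were lower, 10.4% of 2796 that were higher and 8.10% of 9899 that did not pass the test. Among genes that differed by 2-fold or more it was 17 of 184 that were lower and 33 of 308 that were higher. These shares are descriptions, and genes with several windows have more chances of a match.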
